A study of Mus musculus with 4 samples.

Results

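The class II myosin heavy chains of skeletal muscle, smooth muscle and nonmuscle cells were followed in fetal brown fat. Genes were taken by symbol from the table of counts per gene, after its Ensembl identifiers had been mapped to gene symbols, which gave 10 of the 22298 genes listed. Of the 10, 6 code for skeletal heavy chains (Myh3, Myh8, Myh2, Myh1, Myh4 and Myh7), and 4 code for the smooth muscle chain (Myh11) and the nonmuscle chains (Myh9, Myh10 and Myh14). RNA-seq was performed on brown adipose tissue collected at E18.5, the last day of gestation, from fetuses of the C57BL/6 strain (C57BL/6J in the study's methods), with no genotype given. Dams of the control group drank sterilized tap water and dams of the fructose group drank 20% (w/v) fructose in water during pregnancy, and those whose fetuses were used were killed at E18.5. Each group had 2 libraries, and the number of fetuses or litters in a library is not given in the sources used here. Both groups shared the strain, the tissue, the fetal age and the label male, so the drink of the dam was the difference that the labels name.

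Each class II heavy chain carries a motor head that binds actin and splits ATP, a neck that holds light chains, and a long coiled tail that packs into filaments. Skeletal fibers use developmental heavy chains before birth and replace them with adult fast or slow chains as fibers mature, while smooth muscle has its own chain and nonmuscle chains serve contraction, adhesion and cell division in nearly all cells. Brown adipocytes share an early lineage with skeletal muscle, and fetal brown fat lies beside muscle of the neck and back.

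The counts went against the labels on sex. Eif2s3y, Ddx3y, Kdm5d and Uty, which lie on the Y chromosome, summed to 422 counts in control 1 and 390 counts in control 2, and to 0 counts in each of fructose 1 and fructose 2, although all 4 libraries carried the label male. Sex and treatment therefore cannot be told apart here, and every difference below is between 2 libraries with Y-linked counts and 2 without. The tissue label was checked against 9 brown adipocyte markers, whose summed levels were 16947, 19448, 17681 and 16112 CPM (counts scaled to the library total with edgeR's TMM factors) in control 1, control 2, fructose 1 and fructose 2, with Ucp1 the most abundant. This order of libraries holds for every set of 4 values that follows. All 9 brown adipocyte markers were tested, with a median log2 fold change of 0.00 between fructose and control. By edgeR 2 were higher and 2 lower, where 15.5% and 10.7% of all tested genes were. With the trend in transcript length described below removed, 2 were higher and 0 lower.

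Library totals were 19224529, 18542897, 22461298 and 23645147 counts. A count of 3, taken as the floor of detection, corresponded to 0.158, 0.166, 0.133 and 0.123 CPM, and such floors, like the interval of the Myh2 count ratio below, cover counting error only. Genes of the mitochondrial genome took 5.89%, 6.49%, 10.8% and 11.2% of all counts. Fold changes compare fructose with control in edgeR's quasi-likelihood fit over 12888 genes, and adjusted p-values are Benjamini-Hochberg values over those genes. These p-values measure only the spread between these samples, because nothing in the sources says that the libraries came from separate litters. Over 12884 of these genes, the log2 fold change rose with transcript length (Spearman rank correlation 0.50) and fell with GC content (rank correlation -0.50), a relation across genes, which are not independent replicates. The heavy chains are long: the shortest transcript among the 10 members measured 6016 bases, longer than the transcripts of 85.4% of tested genes, whose median was 3433 bases.

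Myh8 had the highest level per kilobase among the skeletal members in all 4 libraries. This gene, which codes for the perinatal heavy chain that dominates fetal fibers late in gestation, had 357, 436, 1736 and 1890 counts, or 18.8, 24.2, 76.8 and 77.2 CPM. Both fructose libraries were high, close to each other, and clear of both control libraries. Its mean level was 21.5 ± 3.78 CPM in control against 77 ± 0.281 CPM after fructose (SD, n = 2 each), and the log2 fold change was 1.84 (95% interval 1.59 to 2.09, edgeR adjusted p = 9.9e-06), a 3.58-fold rise. Myh3, the embryonic heavy chain of the earliest fibers, had 55, 80, 482 and 266 counts, or 2.9, 4.44, 21.3 and 10.9 CPM. The lower fructose library still exceeded the higher control library, and fructose 1 stood well above fructose 2. The rise of Myh3 was 2.13 on the log2 scale (SE 0.30, 95% interval 1.47 to 2.79, edgeR adjusted p = 0.00085), with means of 3.67 ± 1.08 CPM for control and 16.1 ± 7.39 CPM for fructose libraries (SD, n = 2 each). In bulk tissue, more or fewer cells of a type and more or less RNA per cell cannot be told apart.

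**Figure D1:**
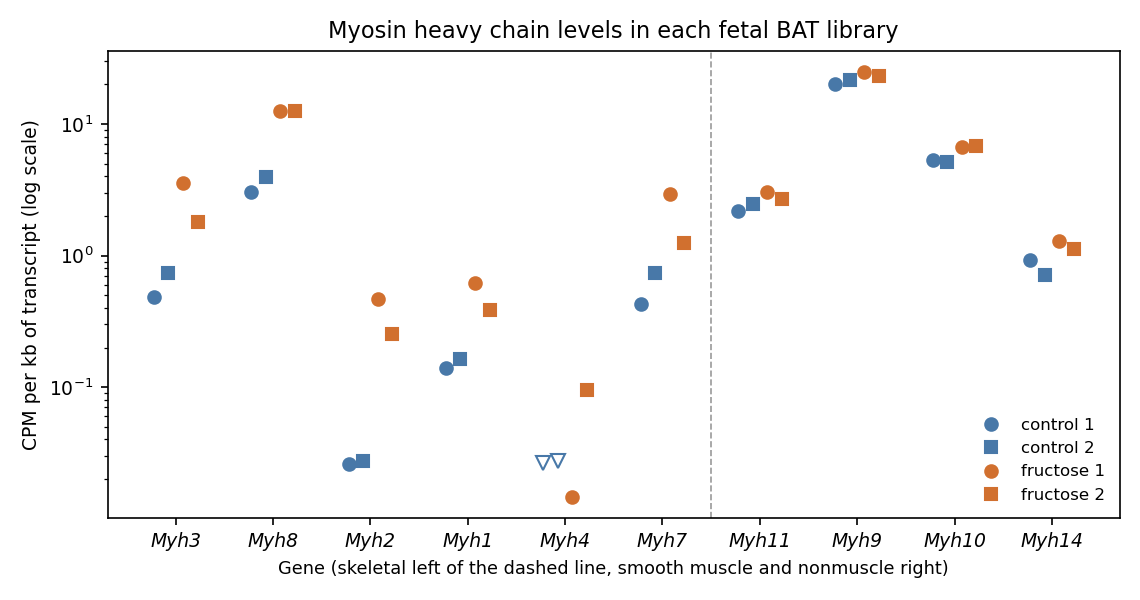
Level of each of the 10 heavy chain genes in the 4 libraries, as CPM per kilobase of transcript on a log axis, with color for the group, circles for replicate 1 and squares for replicate 2. Points of control and fructose separate widely for Myh3, Myh8, Myh2, Myh1 and Myh7 and lie near each other for Myh11, Myh9, Myh10 and Myh14; open triangles mark the control libraries with 0 counts of Myh4, drawn at the level that 3 counts would give.

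Adult fast chains were rare in every library. Myh1, the chain of fast IIx fibers, had 16, 18, 85 and 57 counts, or 0.845, 0.999, 3.76 and 2.33 CPM. Control libraries were low and near each other, and both fructose libraries lay above them. Its log2 fold change was 1.71 (SE 0.36, 95% interval 0.93 to 2.50, edgeR adjusted p = 0.0057), and the call was lost without fructose 1, where the value was 1.34 with an adjusted p of 0.063 (0.00031 to 0.063 over its alternatives). Myh2, the chain of fast IIa fibers, had 3, 3, 64 and 38 counts, or 0.158, 0.166, 2.83 and 1.55 CPM. Control libraries sat at the floor and fructose libraries well above it. Summed over a group, 6 control counts stood against 102 fructose counts, a ratio of 13.3 after scaling (exact 95% counting interval 5.92 to 37.2). Myh4, the chain of the fastest IIb fibers, had 0, 0, 2 and 14 counts and was too low to test. Its counts came nearly all from fructose 2, whereas fructose 1 held more counts of Myh1 and Myh2 than fructose 2 did, and the depth allows up to 0.158 and 0.166 CPM of Myh4 in the control libraries.

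Because Myh1, Myh2 and Myh4 are close in sequence, their counts were also summed into a single feature before the fit. This fast sum had 19, 21, 151 and 109 counts, or 1, 1.16, 6.68 and 4.45 CPM. Both fructose libraries exceeded both control libraries by a wide margin. The log2 fold change of the sum was 2.35 (SE 0.31, edgeR adjusted p = 0.00054), to which Myh2 and Myh4, at or under 3 counts in each control library, add beyond the 1.71 of Myh1.

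Slow fibers and the heart ventricle use Myh7. It had 51, 83, 415 and 190 counts, or 2.69, 4.6, 18.4 and 7.76 CPM, with means of 3.65 ± 1.35 in control and 13.1 ± 7.49 in fructose (SD, n = 2 each). The groups did not overlap, and fructose 1 was again above fructose 2. Its log2 fold change was 1.84 (SE 0.36, 95% interval 1.05 to 2.63, edgeR adjusted p = 0.0043). Without fructose 1 the value fell to 1.09, and in DESeq2 the adjusted p was 0.051, the highest over its alternatives.

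Other class II heavy chains were near the floor. Myh6, the atrial chain and the closest relative of Myh7, had 0, 0, 2 and 5 counts, Myh7b had 0, 1, 1 and 6, and Myh13, the chain of extraocular muscle, had 2, 0, 3 and 2. Myh15 had 0 counts in all 4 libraries, and none of these 4 genes passed the filter on low counts. The 6 cardiomyocyte markers, among them Myh6, summed to 0.211, 0.444, 0.664 and 0.49 CPM, with Ryr2 the most abundant, Nppb at 0 in all 4 libraries and 0 of 6 high enough to test. These markers were near 0 in all 4 libraries.

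Smooth muscle Myh11, the chain of vessel walls, had 273, 290, 454 and 432 counts, or 14.4, 16.1, 20.1 and 17.6 CPM. Fructose libraries lay just above control libraries, with a gap smaller than the distance between the fructose libraries. The log2 fold change of 0.31 (95% interval 0.02 to 0.60) missed the threshold (edgeR adjusted p = 0.11), and it turned to -0.00059 when the transcript length trend was removed.

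Nonmuscle Myh9, the IIA chain used in cell contraction and migration, had 2857, 2920, 4179 and 4245 counts, or 151, 162, 185 and 173 CPM. Its libraries did not overlap between groups, but the gap was small beside the level. The log2 fold change was 0.20 (95% interval 0.01 to 0.38, edgeR adjusted p = 0.10), and it reversed to -0.17 with the length trend removed (adjusted p 0.014 to 0.81 over its alternatives, called in 3 of 16). One of these calls came without control 2, at a log2 fold change of 0.25 and an adjusted p of 0.048.

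Myh10, the IIB chain of nonmuscle cells, had 793, 721, 1169 and 1299 counts, or 41.9, 40, 51.7 and 53.1 CPM. Libraries of a group were close, and both fructose libraries were modestly higher. Its rise of 0.36 on the log2 scale (SE 0.09, 95% interval 0.17 to 0.55, edgeR adjusted p = 0.012), 1.28-fold, turned to -0.033 with the length trend removed (adjusted p = 0.85). It was 0.10 with length and GC content trends removed together (adjusted p = 0.53), and the call was also lost without fructose 2 (0.34, adjusted p = 0.079; range over its alternatives 0.0051 to 0.88).

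Myh14, the IIC chain found mostly in epithelia and nerve, had 114, 84, 191 and 180 counts, or 6.02, 4.66, 8.45 and 7.35 CPM. Both fructose libraries lay above both control libraries. Its log2 fold change was 0.56 (95% interval 0.14 to 0.99) and did not pass adjustment (edgeR adjusted p = 0.052). It passed in 6 of 16 alternatives, among them the fit without control 1 (0.76, adjusted p = 0.0083), and was 0.26 with the length trend removed (adjusted p 0.0083 to 0.41 over its alternatives).

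Of the 6 skeletal members, 5 passed the filter on low counts, and Myh2 passed it through the fructose libraries alone. The 4 skeletal members with more than 3 counts in every library (Myh3, Myh8, Myh1 and Myh7) were all called higher, where 15.5% of tested genes were higher and 10.7% lower in fructose. These 4 had log2 fold changes of 1.71 to 2.13 with a median of 1.84, beside a median of 0.0025 over all tested genes. All 4 smooth muscle and nonmuscle members were tested, and Myh10 was the 1 of 4 called, a share that cannot be read against the background with so few genes. Their median log2 fold change was 0.33 (range 0.20 to 0.56), and it turned to -0.017 with the length trend removed, while Myh3, Myh8, Myh1 and Myh7 then lay between 1.45 and 1.87. The difference between the classes was not tested. Both fructose libraries exceeded both control libraries in these 4 skeletal members and in the 4 smooth muscle and nonmuscle members, as in 33.4% of tested genes. The study's methods set thresholds of an unadjusted p under 0.05 and a fold change above 1.3 on DESeq2 values. With these thresholds applied to the edgeR fit instead, 5 of these 8 members were higher, where 17.6% of tested genes were. They were Myh3, Myh8, Myh1, Myh7 and Myh14. Myh2 is not counted, since its near-absence in control let it enter the test through fructose alone.

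**Figure D2:**
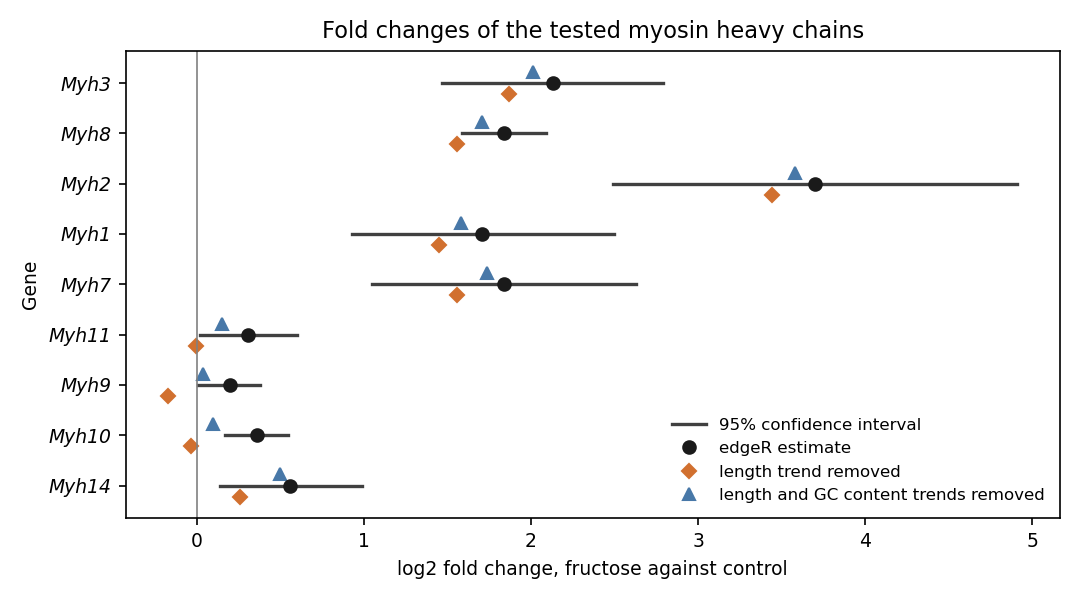
Log2 fold change of fructose against control for the 9 tested heavy chains, as edgeR estimates (circles) with 95% intervals (lines), with the length trend removed (diamonds) and with length and GC content trends removed (triangles). The circles of skeletal members lie at 1.71 and above, that of Myh2 resting on 3 counts in each control library, and Myh11, Myh9, Myh10 and Myh14 lie between 0.20 and 0.56, of which Myh11, Myh9 and Myh10 turn negative as diamonds.

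Ordered by level per kilobase of transcript, control brown fat had mean values of 21 for Myh9, 5.25 for Myh10, 3.5 for Myh8 and 2.33 for Myh11, in CPM per kilobase. Myh14 (0.822), Myh3 (0.609) and Myh7 (0.586) came next on that scale with overlapping libraries, before Myh1 (0.152), Myh2 (0.0267) and Myh4 (0). In fructose libraries Myh9 stayed first at 24.1 CPM per kilobase, and Myh8 at 12.5 stood above Myh10 at 6.72. Myh8 and Myh10 thus changed places, since Myh10 had the higher level per kilobase in both control libraries and Myh8 in both fructose libraries. Below them in fructose, Myh11 (2.88), Myh3 (2.67), Myh7 (2.1) and Myh14 (1.22) were neighbors whose libraries overlapped, as were Myh1 (0.501) and Myh2 (0.36), with Myh4 last at 0.0549 CPM per kilobase.

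Summed per kilobase, the skeletal chains reached 4.14, 5.6, 20.1 and 16.3 CPM per kilobase and the nonmuscle chains 26.6, 27.6, 32.8 and 31.3. The ratio of the skeletal to the nonmuscle sum was 0.156, 0.203, 0.612 and 0.522. Nonmuscle chains thus remained the larger pool in all 4 libraries, with skeletal chains closer to them in fructose. As a share of the heavy chain level per kilobase of all 10 genes, skeletal chains held 12.6%, 15.7%, 35.9% and 32.5%, Myh9 alone 61.6%, 61%, 44.5% and 46.4%, and Myh11 6.68%, 6.88%, 5.48% and 5.36%. These shares add up to a whole, so a lower share of Myh9 does not mean a lower level of Myh9.

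The mix within the skeletal pool was led by Myh8 in all 4 libraries. Myh8 held 74%, 70.2%, 62.2% and 76.9% of the skeletal level per kilobase, Myh3 held 11.6%, 13.1%, 17.6% and 11%, and Myh7 held 10.4%, 13.2%, 14.7% and 7.63%. For each of these 3 chains the fructose libraries spanned the control libraries, so that their shares did not separate the groups. Adult fast chains held 3.98%, 3.42%, 5.47% and 4.49% of the skeletal level, higher in both fructose libraries. Within them Myh1 held 3.35%, 2.93%, 3.08% and 2.34%, not higher in fructose, and Myh2, near the floor in control, held 0.628%, 0.489%, 2.32% and 1.56%. Shares were not tested. The ratio of Myh8 to Myh3 per kilobase was 6.37, 5.35, 3.53 and 6.97, and that of Myh9 to Myh10 was 3.78, 4.24, 3.75 and 3.43.

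**Figure D3:**
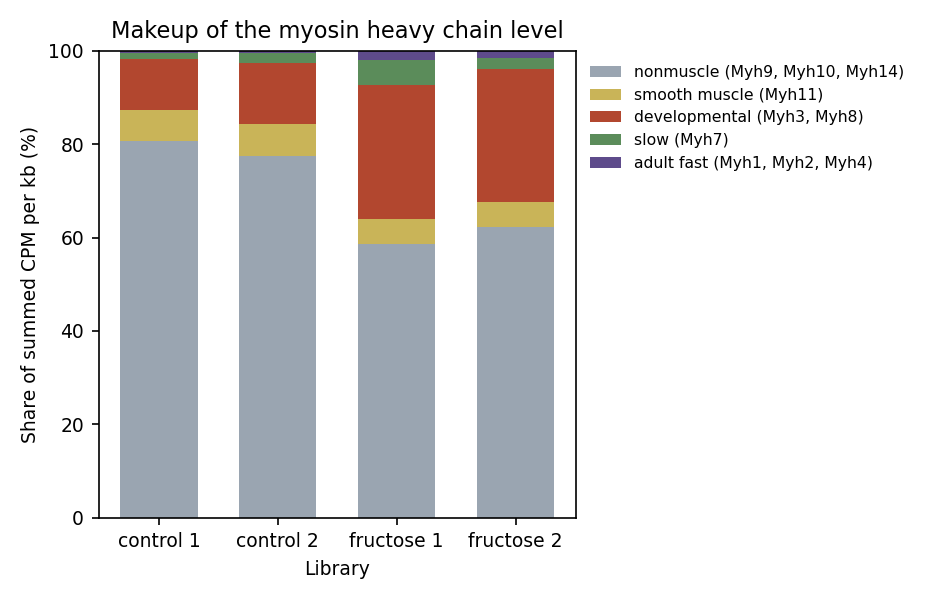
Share (percent) of the summed heavy chain level, as CPM per kilobase of transcript, held in each of the 4 libraries by nonmuscle, smooth muscle, developmental, slow and adult fast chains, stacked as bars from 0. Developmental chains (Myh3 and Myh8) hold 10.8% and 13.1% in the control bars and 28.6% and 28.5% in the fructose bars.

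On the GRCm38 build, 5 of the 6 skeletal members lie in a row on the plus strand of chromosome 11, together with Myh13, over 293.3 kb. The order is Myh3 (chr11:67078300-67102291), Myh2 (chr11:67171027-67197517), Myh1 (chr11:67200052-67224575), Myh4 (chr11:67238029-67260446), Myh8 (chr11:67277124-67308634) and Myh13 (chr11:67321658-67371586). Myh2 and Myh1 are 2534 bases apart, while 68735 bases separate Myh3 from Myh2. Neighbors in this row differed widely in level, from Myh8 with the highest skeletal level to Myh4 and Myh13 near the floor on either side of it. Myh7 lies apart on the minus strand at chr14:54970684-54994626. Myh10 is also on the plus strand of chromosome 11, at chr11:68691559-68816632, outside the row, and Myh11 (chr16:14194535-14291372), Myh9 (chr15:77760587-77842175) and Myh14 (chr7:44605803-44670843) lie on the minus strands of other chromosomes.

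Coding sequences of the row are alike, which bears on how reads are assigned. Myh1 and Myh2 were identical at 91% of aligned coding bases, Myh1 and Myh4 at 90.1%, and Myh8 and Myh1 at 88.9%. Myh3 stood farther off, at 80.1% to 81% with Myh8, Myh2, Myh1 and Myh4, and skeletal chains matched smooth muscle and nonmuscle chains at 54.3% to 57.6%. Stretches of 50 bases were taken from the longest transcript of each member. For Myh1, 32.1% of them also occurred in transcripts of another gene. This share was 28.9% for Myh2, 28.2% for Myh7, 21.4% for Myh8, 18.9% for Myh4 and 4.81% for Myh3. For Myh7 most of that overlap was with Myh6, at 22.2%. Shared stretches were rare in the remaining members, at 1.12% for Myh9, 0.943% for Myh10, 0.4% for Myh11 and 0% for Myh14. How the counting treated reads that match more than 1 gene, and how long the reads were, is not given in the sources used here, so single values of Myh1, Myh2 and Myh4 are less certain than their sum. Strand handling is also not given, and annotated transcripts run opposite to Myh2, Myh1, Myh7 and Myh14.

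The study's primer pairs for Myh1, Myh4 and Myh7 show how far these relatives can be told apart by sequence, and are printed with capitals at the bases that differ from the most similar site in another heavy chain transcript (where genes tied, in Myh11 for the forward primer of Myh1 and in Myh1 for both primers of Myh4).
Myh1 forward: ggaCCCaCggtcGAagttg
Myh1 reverse: cccgaaaacggccatct
Myh4 forward: cAAtCagGaacCTtCggaacac
Myh4 reverse: GtcctggccTcTgagagcat
Myh7 forward: atgagctggaggctgagca
Myh7 reverse: tgcagccgcaGtaGgttctt
The forward primer of Myh1 had 6 mismatches to its nearest other sites, in Myh8, Myh11, Myh14 and Myh6, whereas its reverse primer matched Myh2 and Myh4 with 0 mismatches. The forward primer of Myh4 differed by 7 bases from its nearest sites, in Myh3, Myh1, Myh7, Myh9, Myh6 and Myh15, and the reverse primer by 3 bases from those in Myh2 and Myh1. The forward primer of Myh7 matched Myh6 with 0 mismatches and the reverse primer differed from Myh6 by 2 bases, and Myh6 had no more than 5 counts in any library here. The amplicons measured 103, 80 and 124 bases on the annotated transcripts.

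Promoters of Myh2, Myh1, Myh4 and Myh8, neighbors in the row, were compared with each other for shared runs of bases. In RefSeq promoters of GRCm38.p6, which span 250 bases before to 50 bases after a gene's start, 9 of the 10 members were found, all but Myh11. A run of 14 bases, TTCTAATTATATCC, occurred in Myh2, Myh1, Myh4 and Myh8 and in 4 of 32851 promoters in all, or 0.0122%, with both strands searched. A shorter run of 9 bases, TCAAATTAT, preceded it in each of the 4 and occurred in 0.18% of promoters. The stretch from the shorter to the longer run is printed for each gene on the plus strand, 5′ to 3′, with both runs in capitals.
Myh2, chr11:67170854-67170915: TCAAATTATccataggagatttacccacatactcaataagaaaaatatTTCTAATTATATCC
Myh1, chr11:67199886-67199955: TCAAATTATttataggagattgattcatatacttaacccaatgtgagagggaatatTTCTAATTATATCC
Myh4, chr11:67237625-67237667: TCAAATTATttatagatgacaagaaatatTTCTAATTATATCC
Myh8, chr11:67277020-67277083: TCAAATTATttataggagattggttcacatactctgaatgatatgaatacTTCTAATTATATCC
The space between the runs was 39, 47, 20 and 41 bases in Myh2, Myh1, Myh4 and Myh8, and the longer run began 125, 160, 158 and 54 bases before the RefSeq start, which differs from the annotated gene start above for Myh1 and Myh4. The runs were found by comparing these promoters with each other, after their values were seen, and a shared run is a description of sequence and neither a binding site nor a cause. Myh3, in the same row, and Myh7 were not among the promoters compared to find the runs. Both lack the longer run in these windows, and any relation of the run to the fold changes was not tested. On either strand, TATAAA was in 6 of the 9 promoters (Myh3, Myh8, Myh2, Myh1, Myh4 and Myh9) and in 13.6% of all promoters, CANNTG in 7 of 9 and 72.3%, and CATTCC in 4 of 9 (Myh1, Myh4, Myh7 and Myh10) and 14.7%.

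Heavy chains work with light chains on the neck. Of 7 listed sarcomeric light chain genes, a kinase included, 6 were tested and 4 were higher with 0 lower, at a median log2 fold change of 0.96. With at least 10 counts in every library, so that none entered the test through 1 group alone, 3 of 5 were higher at a median of 0.93, where 15.5% of tested genes were higher. Together the 7 genes had summed levels of 93.7, 125, 251 and 200.4 CPM. Mylpf, the regulatory light chain of fast fibers, had 63.3, 81.8, 161 and 125 CPM. Myl1, the essential light chain of fast fibers, had 20.7, 28.1, 66 and 57.7 CPM. Both genes were high in both fructose libraries, with log2 fold changes of 0.98 (edgeR adjusted p = 0.00066) and 1.34 (edgeR adjusted p = 0.00015). The other calls were Myl4, the light chain of atrium and fetal muscle, at 0.56 (edgeR adjusted p = 0.046), and Mylk2, the skeletal light chain kinase, at 1.55 (edgeR adjusted p = 0.027). Both of these calls were lost in DESeq2 (log2 fold changes 0.55 and 1.55, DESeq2 adjusted p = 0.14 and 0.15). They were also lost without control 1 (log2 fold changes 0.36 and 1.51) and without fructose 1 (0.41 and 1.29). With the length trend removed Myl4 stayed at 0.56 but lost its call (edgeR adjusted p = 0.056, or 0.064 with the replicate block). With both trends removed it was 0.64 and also lost its call (edgeR adjusted p = 0.05). The call of Mylk2 was also lost without control 2 (log2 fold change 1.59) or fructose 2 (1.78).

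Light chains of smooth muscle and nonmuscle cells were listed too, and their difference from the sarcomeric light chains was not tested. Myl12b entered this list under more than 1 Ensembl identifier, at log2 fold changes of -0.23 and -0.14. Of 6 entries tested, 0 were higher and 1 was lower by edgeR, where 15.5% and 10.7% of tested genes were. Their median of -0.18 turned to 0.04 with the length trend removed. In that fit 1 was higher and 0 were lower, beside 8.96% and 7.82% of tested genes. Myl6, their essential light chain, had 547, 503, 461 and 409.6 CPM, and its log2 fold change of -0.27 passed narrowly (edgeR adjusted p = 0.047). The call of Myl6 was lost when scaled by library size only (log2 fold change -0.21, edgeR adjusted p = 0.097) and without the trend in GC content (-0.18, adjusted p = 0.19). Without the length trend it was lost at -0.25 (adjusted p = 0.077), and with the replicate block added at -0.25 (adjusted p = 0.11). Without both trends it was lost at -0.15 (adjusted p = 0.35), and with at least 10 counts in every library at -0.26 (adjusted p = 0.051). Fits without control 1 (-0.21), fructose 1 (-0.35) or fructose 2 (-0.18) lost it too.

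Mybpc1, the slow myosin binding protein C of the thick filament, had 4.07, 7.6, 22.9 and 17.1 CPM and rose by 1.78 (edgeR adjusted p = 0.00064). Of 6 genes for folding and assembly of myosin, 1 was called higher, a share near the 15.5% of all tested genes, and 0 lower. This gene was Hsp90aa1, at a log2 fold change of 0.77 (edgeR adjusted p = 0.0012), or 0.49 without the trend in GC content. With the length trend removed, 2 of the 6 were called higher, beside 8.96% of tested genes. With both trends removed, 2 of the 6 were called higher, beside 4.07% of tested genes.

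Actin filaments of striated muscle moved too. All 13 listed thin filament genes were tested and higher, with a median of 1.42, and so were the 10 of them with at least 10 counts in every library, beside 15.5% of tested genes. They had summed levels of 178, 241, 563 and 379 CPM. Acta1, skeletal actin, was the most abundant at 94.8, 133, 305 and 201 CPM, with fructose 1 above fructose 2 as for Myh3 and Myh7. Actc1, the actin of heart and fetal muscle, rose by 1.42 and Tpm2, a tropomyosin, by 0.77 on the log2 scale, or by 0.44 without fructose 1. Of 14 myogenic regulators, 8 were tested, 3 were higher and 0 lower at a median of 1.10, or 2 of 4 at a median of 0.47 among those with at least 10 counts in every library, and Pax3 had 0 counts in all 4 libraries. With both trends removed, 9 of the 13 thin filament genes and 1 of the 8 regulators were called higher, where 4.07% of tested genes were.

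Markers of cell types moved with the skeletal heavy chains in part. All 8 skeletal muscle markers were higher at a median of 1.24 (6 of 8 with the length trend or both trends removed, and 7 of 7 among those with at least 10 counts in every library), with summed levels of 215, 295, 657 and 467 CPM, Acta1 the most abundant and none at 0. Of these 8, 5 also belong to the lists of light chains, thin filaments or regulators above. The 5 markers of satellite cells and myoblasts summed to 0.739, 0.777, 1.06 and 1.8 CPM, with Cdh15 the most abundant, Pax3 at 0 and 0 high enough to test. Of 8 smooth muscle markers, 7 were tested and 1 (Synpo2) was higher, a gene named after its values were seen, with 0 lower (0 of 7 higher by edgeR with the length trend or both trends removed), and summed levels of 165, 181, 165 and 139 CPM, Acta2 the most abundant. Beside Myh11, these markers thus did not separate the groups in sum. Erythroid markers, 4 of 5 lower where 10.7% of tested genes were (0 of 5 by edgeR with the length trend or both trends removed, at medians of -0.21 and -0.12 in place of -0.50), summed to 10894, 8659.5, 6704 and 6914 CPM, with Hba-a2 the most abundant and none at 0. Median log2 fold changes were -0.08 for 6 endothelial, 0.11 for 5 fibroblast, 0.17 for 4 Schwann cell and 0.04 for 4 macrophage markers. Among them edgeR called 1 endothelial gene lower and 1 macrophage gene higher, where 10.7% and 15.5% of tested genes were. Both calls were lost with the length trend removed, when 1 fibroblast gene was higher. Without the trend in GC content, or without both trends, 1 endothelial and 1 fibroblast gene were lower and no macrophage gene was called. By library size only, 1 endothelial gene was higher and 1 lower, and 1 macrophage gene was higher. The part of these cell types, and of the mitochondrial share of counts, in the heavy chain differences was not tested.

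Genes most like the skeletal heavy chains were sought by the distance between centered log2 CPM profiles over the 4 libraries. The mean profile of the 5 tested skeletal members, Myh2 included, was -1.23, -0.83, 1.40 and 0.66. Genes near it outside the members were 3425401B19Rik (root mean square distance 0.152), Txlnb (0.157), Scn4a (0.19) and Palm2 (0.193). Scn4a, the sodium channel of skeletal muscle, had 4, 4, 32 and 17 counts, so that it was low in control and, like Myh3 and Myh7, higher in fructose 1 than in fructose 2. The log2 fold changes of these 4 genes lay between 2.09 and 2.39, a direction that their choice fixed, and with 3 to 6 counts in each control library they entered the test through the fructose libraries alone.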

How the data were processed

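The authors deposited raw counts per gene, made with fastp, Bowtie2 2.0.0.5, TopHat2 2.0.0 and StringTie 2.2.0 on mm10, with Cuffmerge merging the gene models before counts were taken. The program that did the counting is not named in the sources used here. Counts of 4 libraries were analysed in R 4.3.3 with edgeR 4.0.16 (filterByExpr, TMM, quasi-likelihood test, two-sided, Benjamini-Hochberg, threshold 0.05), control against fructose, with no covariate. Symbols, positions and lengths of the longest transcript came from GENCODE M21 (GRCm38). Sequences were aligned or searched with Python 3.11.15 and Biopython 1.88. Members and lists were chosen with earlier results of these data known. Named genes were the 10 members, other class II heavy chains, light chains past the test, the 3 most abundant tested genes of each other list, and the 5 genes nearest to the mean skeletal profile (log2 CPM, prior count 2). Not every gene this rule selects is described. Alternatives were DESeq2 1.42.0, other scalings and filters, replicate numbers as blocks, offsets that remove length or GC content trends (lowess, span 0.3), the fast chains summed, and each library left out. The tests were checked on simulated counts. The study's other measurements were not analysed here.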

Additional observations from a re-analysis of the deposited data

How the results depend on the processing

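Calls of Myh3 and Myh8 were kept in 16 of 16 alternatives, at log2 fold changes of 1.57 to 2.54 and 1.56 to 2.03. Myh2 and Myh4, at or under 3 counts in each control library, can enter a test through fructose alone, and their calls are not counted here. Genes called higher numbered 2001, against 1280 in DESeq2, 1154 with the length trend removed, 1087 with that trend removed and a replicate block added, 1091 without the GC content trend and 525 without either trend. Genes called lower numbered 1379, against 857 by library size only, 807 with the length trend and block, and 567 with both trends removed. Of the smooth muscle and nonmuscle members, 1 was called, against 3 by library size only or with the GC content trend removed, 2 with no filter, with at least 10 counts in every library or with the block, and 0 with the length trend removed, with or without the block, or with both trends removed. Their median of 0.33 was 0.39 by library size only, 0.40 without the GC content trend and 0.12 without either trend. It reversed to -0.017 with the length trend removed, as did Myh11 (-0.00059), Myh9 (-0.17) and Myh10 (-0.033), and with the block added the values were -0.017, -0.0021, -0.17 and -0.033. The cause was not tested. Leaving out 1 library, with the lone sample assumed to vary like the other group, gave 1207 to 2225 higher, 485 to 1700 lower and 0 to 2 smooth muscle and nonmuscle calls. The lowest counts (1207, 485 and 0) came without fructose 2, and without fructose 1 824 were lower. Shares by coding length differed little, with developmental chains at 85.5%, 83.2%, 79.7% and 87.8% of the skeletal level. For the 17 named genes with at least 10 counts in every library, 237 values kept direction and call, 19 lost the call, 9 gained it and 6 reversed. With 2 libraries per group and 3 or fewer control counts of Myh2 and Myh4, depth limits what can be said of these chains.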
